A study of Mus musculus with 4 samples.

Results

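The cells described here are Foxp3+ T cells, the regulatory T cells (Tregs), in liver biopsies of mice fed a diet that induces steatohepatitis. They were chosen by transcripts. A member had at least 500 unique molecular identifiers (UMIs, each standing for 1 captured transcript), at least 300 detected genes and at most 10% of UMIs from mitochondrial genes. It also had at least 1 UMI over Cd3e, Cd3d and Trac, at least 1 UMI of Foxp3, and none of Cd8a, Cd8b1 or Cd79a. Of the 33198 deposited barcodes, 26825 passed the quality limits, 4533 of these were T cells and 58 met the full rule. T cells here had at least 1 UMI over Cd3e, Cd3d and Trac and none of Cd79a, so a single T cell transcript sufficed.

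Foxp3, on chromosome X (7439883 to 7461484, plus strand, GRCm39), encodes the transcription factor that fixes and maintains the regulatory programme of CD4 T cells. Tregs hold down the responses of other T cells through CTLA-4, which strips co-stimulatory ligands from antigen-presenting cells, through capture of interleukin-2 by CD25 (Il2ra), and through activation of latent TGF-beta held on GARP (Lrrc32). In tissues, some Tregs carry the interleukin-33 receptor ST2 (Il1rl1) with GATA3 and release the repair factor amphiregulin (Areg), while others keep the lymph node homing receptor CCR7 of recirculating cells.

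Male C57BL/6J mice received a diet of fructose, palmitate and trans-fat (FPC) whose cholesterol content was low or high by arm to week 24. Liver non-parenchymal cells were taken by fine-needle aspiration (FNA) and profiled with 10x Genomics 3' v3.1 chemistry. P-LC24 and P-HC24 were sampled at week 24, after 0.05% and 1.25% dietary cholesterol. I-LC32 and I-HC32 were sampled at week 32 from the same animals, after 8 more weeks in which both arms received 0.05% cholesterol. Each condition was 1 library, made by pooling 12 biopsies from 3 mice, and the 2 libraries of a diet arm share their mice. Conditions therefore had no replicate, and differences between them were not tested. All animals received the FPC diet, so no library represents a healthy liver. The libraries held 50941106, 73837023, 79215858 and 89257239 UMIs. Values are given throughout in the order P-LC24, P-HC24, then I-LC32, then I-HC32.

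Members numbered 9, 8, 22 and 19. Their summed UMIs were 58310, 38924, 206165 and 116973, and the median member carried 5922, 4582.5, 8086 and 4869 UMIs. The precision of every value is set by these small totals, and all intervals (exact, 95%) and limits from a count of 0 cover counting error only. No barcode was a member in more than 1 library, although each pair of libraries shared 17 to 41 barcodes and the barcode of 1 I-HC32 member also occurred in I-LC32.

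The steps of the rule removed more Foxp3 barcodes than they kept. Foxp3 was detected in 129 barcodes, of which 5 failed the quality limits (4 of them on mitochondrial share alone), 25 had no T cell transcript, 33 carried Cd79a and 8 carried Cd8a or Cd8b1. Just inside the rule were 17 members with exactly 1 Foxp3 UMI, distributed as 0, 0, 5 and 12 cells, so most I-HC32 members rested on a single transcript. The other 41 members had 2 to 8 Foxp3 UMIs. For comparison, a Foxp3 UMI occurred in 0.114% of B cells (20 of 17583, median 7052 UMIs), in 0.216% of CD8 T cells (5 of 2317, median 8202 UMIs) and in 2.69% of T cells without Cd8a or Cd8b1 (58 of 2153, median 6316 UMIs). B cells had a Cd79a UMI and none of Cd3e, Cd3d or Trac. The 33 barcodes above had Cd79a and a T cell transcript and so are not among these B cells. The B cell share therefore does not measure co-capture of T and B cell RNA. Whether free or co-captured RNA supplied the Foxp3 UMI of any of the 17 members with 1 was not tested, which bears most on the I-HC32 shares and ratios. Cells just outside the rule, with no Foxp3 UMI, supply the comparison groups below.

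Haemoglobin or macrophage RNA passed the limits given below in 5 of the 58 members, and these are all from week 32. Smaller amounts of such RNA were seen in other members of both weeks. Haemoglobin transcripts made up 3.09%, 17.2% and 55.9% of the UMIs of 3 I-LC32 members and 75.1% of those of 1 I-HC32 member. A further I-HC32 member of 24622 UMIs held 137 UMIs of 6 macrophage genes and 996 of the lysozyme gene Lyz2, and it carried 1 Foxp3 UMI. Of 745 Foxp3-negative CD4 T cells, 4.43% met the same limits (over 1% haemoglobin UMIs, or over 2 macrophage-gene UMIs). None of the 58 members was among the cells with the highest doublet scores from Scrublet. The number of such cells was fixed in advance from the size of each library, so this gives no verdict on any member. Summed over the members of each library, 7 macrophage and monocyte genes stood at 154, 257, 262 and 10250 CPM, with Lyz2 the most abundant overall and with Csf1r, Adgre1, C1qa and Fcer1g at 0 in every library but I-HC32. Erythroid genes, led by Hbb-bs, stood at 892, 514, 34497 and 52773 CPM. B cell genes, described below with Ighm, stood at 274, 668, 529 and 376 CPM. The remaining lists of other cell types left little trace. Of 6 natural killer (NK) and innate-like T cell genes outside the rule 4 had a UMI (23.8 CPM, led by Nkg7) and Ncr1 and Klrb1c were at 0. Of 4 neutrophil genes only Csf3r was seen (14.3 CPM), and of 5 hepatocyte genes Apoa2 gave 1 UMI while Alb was at 0. The counts of genes, and the week 32 ratios that these 5 cells move most, are given with and without them.

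Foxp3+ cells made up 0.902% of T cells in P-LC24 (9 of 998, 95% interval 0.413 to 1.70%), 0.782% in P-HC24 (8 of 1023, 0.338 to 1.54%), 1.44% in I-LC32 (22 of 1526, 0.906 to 2.17%) and 1.93% in I-HC32 (19 of 986, 1.16 to 2.99%). The week 32 libraries held the higher shares, but the intervals of all 4 libraries overlapped. Counting only members with at least 2 Foxp3 UMIs lowered the I-HC32 share to 0.710%, the lowest of the 4 libraries. The place of I-HC32 in the order thus rested on the cells with a single Foxp3 transcript. Among CD4 T cells, defined as members plus Foxp3-negative cells with a Cd4 UMI, the shares were 5.92%, 6.90%, 8.09% and 7.22%. That definition asks for a Cd4 UMI of the Foxp3-negative cells only, and 30 of the 58 members had none. With a Cd4 UMI asked of both, the shares were 4.67% (7 of 150), 0.917% (1 of 109), 5.30% (14 of 264) and 2.40% (6 of 250), so the order of the libraries changed with the definition. With at least 2 Foxp3 UMIs and the first definition, I-HC32 stood at 2.79%.

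**Figure D1:**
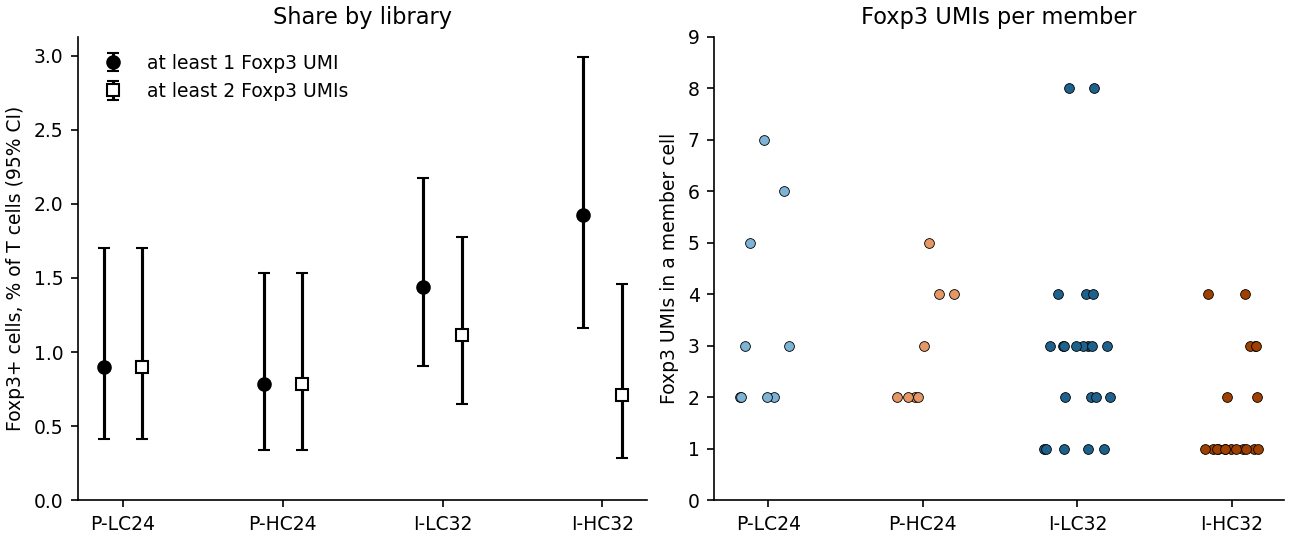
Left, Foxp3+ cells as a percent of T cells in each library, with exact 95% intervals, for members with at least 1 (filled circles) or at least 2 (open squares) Foxp3 UMIs. Right, Foxp3 UMIs in each of the 58 members; P-LC24 and P-HC24 hold no member with 1 UMI, whereas 12 of 19 I-HC32 members do.

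The label of regulatory T cells was checked on markers that the rule did not use. Helios (Ikzf2), an Ikaros-family factor typical of Tregs, was detected in 8 of 9, 7 of 8, 21 of 22 and 13 of 19 members, 84.5% in all. It was found in 19.6% of Foxp3-negative CD4 T cells and in 0.631% of B cells. OX40 (Tnfrsf4), a co-stimulatory receptor, was detected in 67.2% of members against 21.5% of Foxp3-negative CD4 T cells and 0.762% of B cells, and Il2ra in 39.7% against 4.16% and 2.31%. Ctla4 was less selective, with 96.6% of members, 36.4% of Foxp3-negative CD4 T cells and 30.0% of B cells. The median UMI count was 5920 in the members, 6316 in the Foxp3-negative CD4 T cells and 7052 in the B cells. At least 1 of Ikzf2, Tnfrsf4 and Il2ra was present in 52 of 58 members, and 1 member, from I-LC32, had none of these and no Ctla4. Cd4 itself was detected in 7 of 9, 1 of 8, 14 of 22 and 6 of 19 members, so the CD4 identity of 30 members rests on the absence of Cd8 transcripts. By these markers the data fit the label, with the P-HC24 cells the least complete for Cd4.

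Detection depends on depth, and the shares were therefore recomputed after thinning every cell to 3000 UMIs, which left 55 members and 715 Foxp3-negative CD4 T cells. Ikzf2 was then detected in 83.6% against 15.7%, Ctla4 in 87.3% against 26.3%, Tnfrsf4 in 50.9% against 13.6% and Il2ra in 29.1% against 2.24%. The members remained the higher group for all 4 genes at equal depth. The members with a single Foxp3 UMI carried Ikzf2 in 11 of 17 cells and Ctla4 in 16 of 17, compared with 38 of 41 and 40 of 41 of the members with more Foxp3. Lrrc32 was found in 7 of 17 and 19 of 41, and Il2ra in 3 of 17 and 20 of 41. The median UMI count was 5918 in the first set and 5922 in the second.

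**Figure D2:**
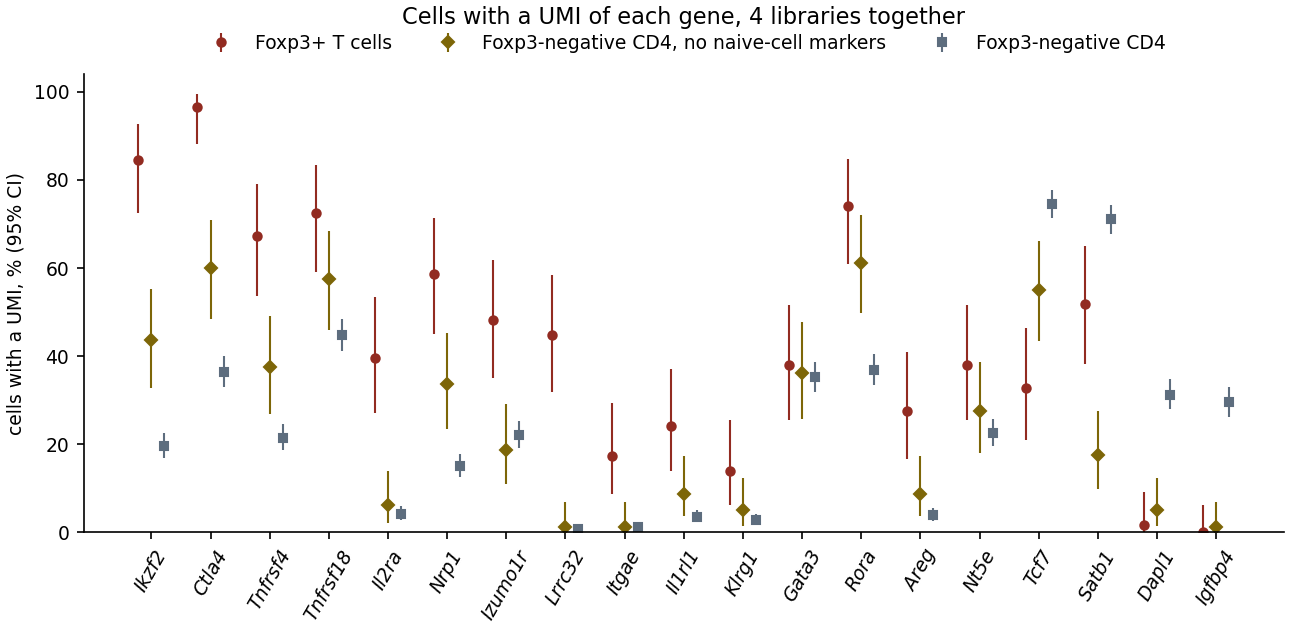
Percent of cells with at least 1 UMI of each of 19 genes (exact 95% intervals) in the 58 Foxp3+ T cells (circles), the 80 Foxp3-negative CD4 T cells without naive-cell markers such as Ccr7 and Lef1 (diamonds) and all 745 Foxp3-negative CD4 T cells (squares). Ikzf2, Ctla4, Tnfrsf4 and Lrrc32 were detected in more of the members than of either other class, Gata3 in similar shares of all 3, and Dapl1 and Igfbp4 in fewer members than Foxp3-negative CD4 T cells as a whole.

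To ask how the Foxp3+ cells differ from other CD4 T cells of the same libraries, UMIs were summed per library and class and compared with edgeR's quasi-likelihood test with the library as a block. The comparison class was 745 Foxp3-negative T cells with a Cd4 UMI (143, 108, 250 and 244 cells). The members had more transcript of Helios and of 8 of 16 tested Treg core genes, among them Ctla4, Lrrc32 and Nrp1. They had less of 7 of 12 tested naive genes, of the chemokine gene Ccl5 and of 53 of 89 tested ribosomal protein genes. Of 5734 genes tested, 213 passed a Benjamini-Hochberg adjusted p of 0.05 (3.71%), with 83 higher (1.45%) and 130 lower (2.27%) in the members. Scaling to total UMIs in place of TMM moved the median log2 difference of all genes from -0.05 to 0.05 and gave 109 higher and 90 lower, so the balance of directions depended on the scaling. With the cells carrying haemoglobin or macrophage RNA left out of both classes, edgeR called 103 higher and 159 lower of 5375 genes. Leaving out I-LC32, the library with the most member UMIs, reduced the calls to 27 higher and 38 lower. The counts were 35 and 45 without P-LC24, 48 and 53 without P-HC24, and 92 and 137 without I-HC32. With only the members that had a Cd4 UMI they were 30 and 35 of 5418 genes. The samples are 4 libraries from 2 sets of mice, so the p-values measure spread between libraries and not between animals.

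Ikzf2 (Helios) reached 2007, 976, 2561 and 1274 CPM (UMIs of the gene scaled to the same total UMIs in each library and class) in the members and 119, 119, 139 and 238 CPM in the Foxp3-negative cells. The 2 classes did not overlap, and the log2 difference was 3.30 (SE 0.28, edgeR adjusted p = 2.3e-05). Ctla4, the inhibitory receptor that competes with CD28, stood at 1698, 1362, 946 and 1180 CPM against 115, 135, 165 and 234 CPM. Both genes lie on chromosome 1, Ctla4 at 60926159 to 60954991 and Ikzf2 at 69570373 to 69727004 (GRCm39). Again every library of the members lay above every library of the other class (log2 difference 2.85, SE 0.21, edgeR adjusted p = 7.3e-10). Tnfrsf4 (OX40) was at 446, 411, 335 and 282 CPM against 23.3, 46.4, 62.1 and 111 CPM, a log2 difference of 2.53 (SE 0.33, edgeR adjusted p = 0.00012) without overlap. These 3 calls held when any library was left out.

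Il2ra, which encodes the CD25 chain that gives the interleukin-2 receptor its high affinity, was lower in abundance and more uneven. Its CPM were 326, 103, 72.8 and 51.3 in the members and 11.2, 2.51, 8.44 and 33.3 in the Foxp3-negative cells. The classes did not overlap and the log2 difference was 3.01 (SE 0.59, edgeR adjusted p = 0.0066), but the call was lost without P-LC24 (edgeR adjusted p = 0.11), without P-HC24 (0.061) and without I-LC32 (0.11). The highest member level came from P-LC24, where 6 of 9 cells had a UMI, and the lowest from I-HC32, where 4 of 19 did. Other genes of the interleukin-2 and STAT5 list moved both ways. Stat5b, a transducer of the interleukin-2 signal, was higher by 0.69 (SE 0.19, edgeR adjusted p = 0.031), and the survival gene Bcl2 fell by 1.57 (SE 0.28, edgeR adjusted p = 0.0085). The Stat5b call was lost when any library other than I-HC32 was left out. Socs1 and Socs3, feedback inhibitors of cytokine receptors, had log2 values of -1.24 and -1.36 and did not pass (edgeR adjusted p = 0.056 and 0.054).

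Of 20 Treg core genes, 16 passed the filter on low counts and 8 were called, all of them higher, with a median log2 difference of 1.33 over the 16 against -0.05 over all genes tested. The largest difference belonged to Lrrc32 (GARP), at 171, 77.1, 53.4 and 120 CPM in the members and 0, 3.76, 0.603 and 1.75 CPM in the Foxp3-negative cells (log2 difference 5.97, SE 0.58, edgeR adjusted p = 1.9e-07). It was detected in 26 of 58 members and in 6 of 745 Foxp3-negative cells. Nrp1, a semaphorin receptor found on thymus-derived Tregs, differed by 2.06 (SE 0.33, edgeR adjusted p = 0.00025), and the co-stimulatory receptor GITR (Tnfrsf18) by 1.36 (SE 0.26, edgeR adjusted p = 0.002). Both were apart in all libraries, yet their calls were lost without I-LC32 (edgeR adjusted p = 0.06 and 0.079). Izumo1r (folate receptor 4) differed by 1.31 and Icos, a co-stimulatory receptor of the CD28 family, by 1.12. The actin-capping gene Capg differed by 1.48 and Swap70, a regulator of the actin skeleton, by 2.06. The Capg, Swap70 and Icos levels of the 2 classes overlapped between libraries, and the Swap70 difference rested on 17 member UMIs.

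Core genes that did not pass included Tnfrsf9 (4-1BB), with a log2 value of 1.37 (edgeR adjusted p = 0.11), Tnfrsf1b (TNF receptor 2) with 1.10 (0.059) and Gpr83 with 1.19 (0.44). Tnfrsf9 showed how uneven such genes were across libraries, with a UMI in 4 of 9, 0 of 8, 10 of 22 and 10 of 19 members. Eos (Ikzf4), the relative of Helios, was seen in 8 of 58 members and did not pass the filter on low counts. Among 12 co-stimulatory receptors, all tested, 4 were higher (Ctla4, Icos, Tnfrsf4 and Tnfrsf18) and none was lower. The exhaustion list gave 1 call among 3 tested genes. Tox, a factor of chronically stimulated T cells, was at 1475, 1028, 1101 and 573 CPM against 538, 317, 407 and 438 CPM (log2 difference 1.09, SE 0.19, edgeR adjusted p = 0.00076), without overlap.

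Of 14 suppressive molecules, 5 were abundant enough to test and edgeR called Ctla4 alone (DESeq2 called 2). Nt5e (CD73), which makes adenosine, was found in 22 of 58 members and 168 of 745 Foxp3-negative cells (log2 value 0.90, edgeR adjusted p = 0.44), and Tgfb1 in 20 and 203 (0.56, 0.64). No Il10 UMI was found in the 58 members, which allows a share of up to 5.17% of cells with a UMI, whereas 18 of 745 Foxp3-negative CD4 T cells had one. Lag3 was likewise at 0 of 58, and the interleukin-35 subunit Ebi3 was found in 2 members. At this depth the absence of Il10 in the members cannot be told from a level like that of the Foxp3-negative cells.

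By the size of the difference, the other genes higher in the members in all 4 libraries and with at least 50 member UMIs were led by Lamc1, a laminin chain of basement membranes. Lamc1 was at 137, 154, 87.3 and 197 CPM in the members and 2.79, 12.5, 4.82 and 9.34 CPM in the Foxp3-negative cells (log2 difference 4.21, SE 0.45, edgeR adjusted p = 9.4e-07). Its lowest member library lay well above its highest Foxp3-negative library. Glrx (glutaredoxin, which reduces mixed disulfides) followed with 2.43, then Coro2a (an actin-binding coronin) with 2.42, Osbpl3 (an oxysterol-binding protein relative) with 2.32 and Lclat1 (a cardiolipin acyltransferase) with 2.29. Myo1e (a class I myosin) differed by 2.27 and Plcb4 (a phospholipase C) by 2.14. The Glrx and Plcb4 calls were lost without I-LC32 (edgeR adjusted p = 0.11 and 0.47). Myo1e was at 17.1 CPM in P-LC24 members and 376 CPM in I-HC32 members, and its classes overlapped.

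**Figure D3:**
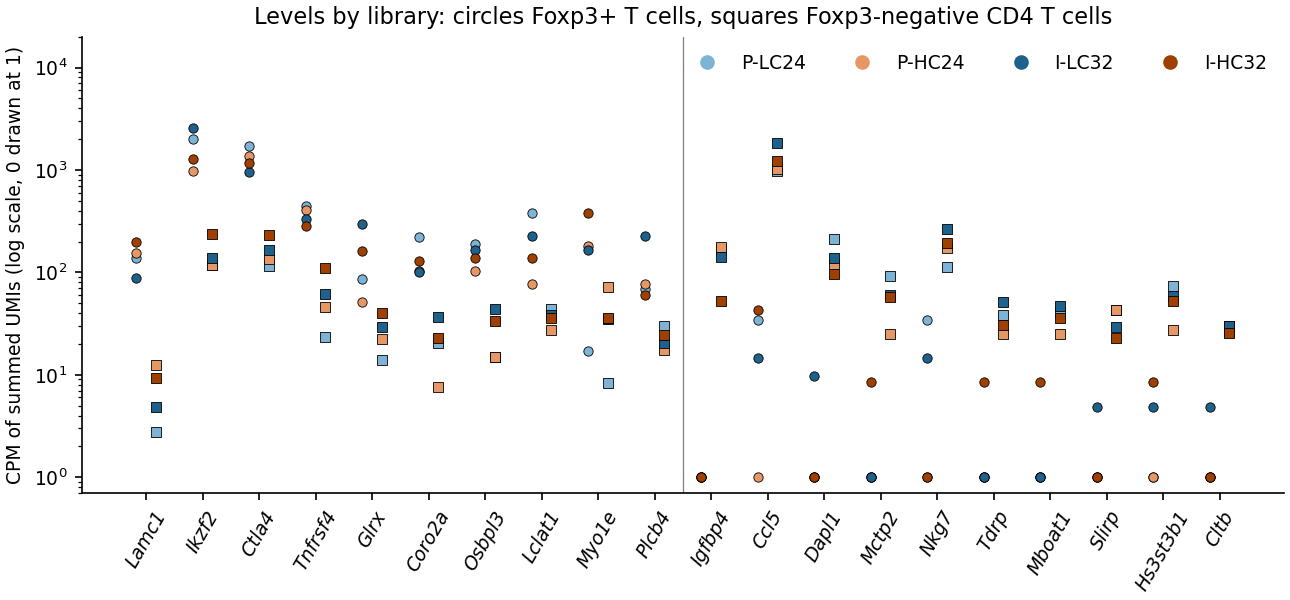
CPM of summed UMIs (log axis, 0 drawn at 1) of the 20 named genes in each library, with circles for Foxp3+ T cells and squares for Foxp3-negative CD4 T cells. Left of the line are 10 genes higher in the members and right of it 10 genes lower, of which Igfbp4 is at 0 in the members of all 4 libraries.

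Naive and circulating T cell genes were lower in the members. All 12 genes of that list were tested and 7 were called, each lower (Dapl1, Lef1, Bach2, Tcf7, Igfbp4, Il7r and Satb1), with a median log2 value of -1.05 over the 12. Igfbp4, an insulin-like growth factor binding protein of naive CD4 T cells, had no UMI in the members and 638 UMIs in the Foxp3-negative cells, where it stood at 164, 175, 140 and 51.9 CPM. The members were at least 17.04-fold lower, taking 3 UMIs over the 4 libraries as the floor (edgeR adjusted p = 6.8e-06). Dapl1 was found in 1 of 58 members and 233 of 745 Foxp3-negative cells. Tcf7, the factor that keeps naive and memory T cells in a stem-like state, was at 34.3, 128, 87.3 and 51.3 CPM against 428, 264, 284 and 250 CPM (log2 value -2.14, SE 0.31, edgeR adjusted p = 8.1e-05), without overlap. Lef1, its partner, fell by 1.36 (SE 0.24) and Bach2, a repressor of effector genes, by 1.14 (SE 0.20). Klf2, which drives the exit receptor S1pr1, had a log2 value of 0.02 (edgeR adjusted p = 1), so the list did not move as a block.

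Satb1, the chromatin organiser, was uneven between libraries. Its CPM were 1218, 437, 262 and 846 in the members and 1580, 896, 827 and 1037 in the Foxp3-negative cells. The classes overlapped, the log2 value was -0.96 (SE 0.21, edgeR adjusted p = 0.0091), and the call was lost without P-LC24 (0.065), without P-HC24 (0.096), without I-LC32 (0.2) and without the cells carrying haemoglobin or macrophage RNA (0.32).

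Among the genes named by the size of their decrease, Ccl5 and Nkg7 were the most abundant outside the naive list. Ccl5 (RANTES, a chemokine of effector T cells) was at 34.3, 0, 14.6 and 42.7 CPM in the members and 977, 1014, 1830 and 1212 CPM in the Foxp3-negative cells (log2 value -5.89, SE 0.35, edgeR adjusted p = 5e-10). Nkg7, a cytotoxic granule protein, was at 34.3, 0, 14.6 and 0 CPM against 113, 172, 267 and 195 CPM (log2 value -4.21, SE 0.51, edgeR adjusted p = 6.8e-06). For both genes the lowest Foxp3-negative library was above the highest member library. The other named genes of this direction (Mctp2, Tdrp, Mboat1, Slirp, Hs3st3b1 and Cltb) had 1 or 2 UMIs in all members together, so the size of their differences is poorly known.

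Ribosomal protein genes formed the largest block of lower calls, 53 of 89 tested, with a median log2 value of -0.51. They took 24.5%, 28.0%, 19.8% and 20.1% of the members' UMIs and 31.6%, 33.6%, 27.3% and 26.7% of those of the Foxp3-negative cells. In each library the members had the smaller share. Among the other genes, 83 were higher and 77 lower. Against Foxp3-negative CD4 T cells without naive-cell markers such as Ccr7 and Lef1, whose ribosomal share was 21.1%, 25.6%, 22.8% and 24.0%, edgeR called none of 82 ribosomal protein genes (3 at an unadjusted p under 0.05, 2 of them higher and 1 lower, and none by DESeq2).

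Of 16 tissue Treg genes 7 were tested, and 1 was called, the nuclear receptor gene Rora, at 617, 540, 796 and 291 CPM against 139, 125, 222 and 235 CPM (log2 difference 1.45, SE 0.24, edgeR adjusted p = 0.00041). Il1rl1 (ST2) was detected in 2 of 9, 0 of 8, 9 of 22 and 3 of 19 members and in 26 of 745 Foxp3-negative cells, a log2 value of 2.48 that did not pass (SE 1.07, edgeR adjusted p = 0.48). Areg was found in 5 of 9, 3 of 8, 6 of 22 and 2 of 19 members and in 29 of 745 (2.71, SE 1.51, edgeR adjusted p = 0.68). For both genes the spread between libraries was too wide for a call, with Il1rl1 at 0 in the members of P-HC24. After thinning to 3000 UMIs, Il1rl1 was detected in 21.8% of members against 2.94%, and Areg in 16.4% against 2.66%. Gata3 did not differ detectably (log2 value 0.37, SE 0.33).

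Within the members, Il1rl1 transcripts were found together with those of tissue genes, and seldom with Ccr7. The 14 cells with Il1rl1 included 14 with Ikzf2, 10 with Gata3, 7 with the integrin chain Itgae (CD103) and 5 with the inhibitory receptor Klrg1. Areg was found in 5 of them and Ccr7 in 1. Of the 44 cells without Il1rl1, 35 had Ikzf2, 12 had Gata3, 3 had Itgae, 3 had Klrg1, 11 had Areg and 18 had Ccr7. These counts describe the cells of pooled libraries, in which 9 of the 14 Il1rl1 cells came from I-LC32, the library with the deepest members, and were not tested. Klrg1 was seen in 0, 0, 7 and 1 members. Itgae was seen in 3, 0, 7 and 0 members, that is in 10 of 31 cells of the LC arm and 0 of 27 of the HC arm, which allows a share of up to 11.1%. Foxp3-negative cells had Itgae in 9 of 745.

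Ccr7 was present in 19 of the 58 members (1 of 9, 4 of 8, 5 of 22 and 9 of 19). Summed over 12 naive and circulating genes, the median member had 45.4, 53.0, 33.8 and 53.4 UMIs per 10000, with a lowest value of 7.60 and a highest of 153 over all libraries. Summed over 16 tissue Treg genes the medians were 15.5, 2.33, 20.97 and 9.12, with 2 members at 0 and a highest value of 46.2. Tissue genes exceeded naive genes in 3, 1, 5 and 1 members. The only such I-HC32 member had 1 Foxp3 UMI. The ranges of the libraries overlapped on both axes, and the P-HC24 members had the lowest median for tissue genes.

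**Figure D4:**
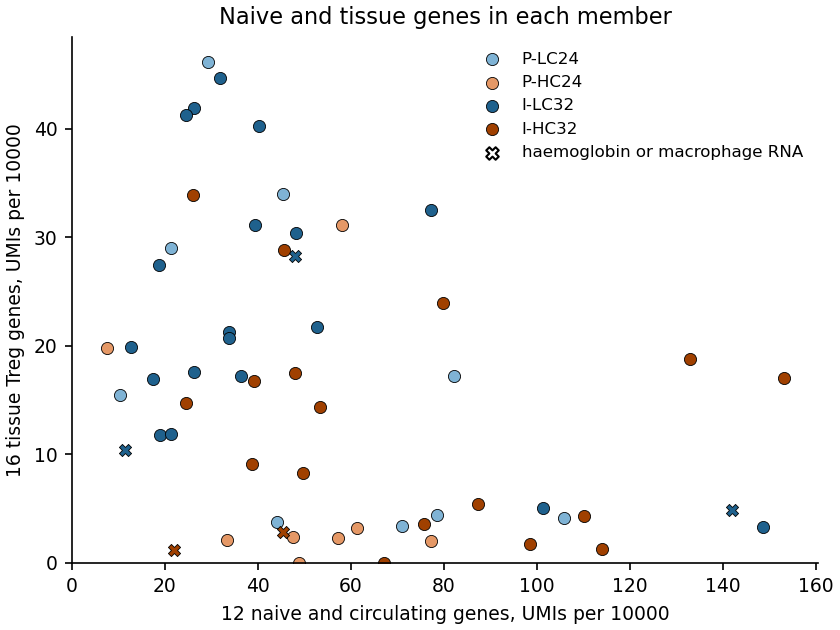
UMIs per 10000 of 16 tissue Treg genes against those of 12 naive and circulating genes, 1 point for each of the 58 members, coloured by library, with crosses for the 5 cells with haemoglobin or macrophage RNA. Most points lie along the naive axis, and tissue genes exceed naive genes in 10 of 58 cells.

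A closer comparison used the 80 Foxp3-negative CD4 T cells with no UMI of naive-cell markers, Ccr7 and Lef1 among them (13, 13, 27 and 27 cells; 466922 UMIs), which are nearer to effector cells. Ctla4 and Ikzf2 stayed higher in the members and Ccl5 and Nkg7 lower, while most other Treg receptors no longer passed. On simulated data for this comparison, edgeR recovered 18.2% of 2-fold increases, so a gene that did not pass is not shown to be equal. Of 1598 genes tested, 46 were called (2.88%), 24 higher (1.5%) and 22 lower (1.38%). Without I-LC32 the counts were 7 and 8, and without the cells carrying foreign RNA 36 and 25 of 1323 genes. With only the members that had a Cd4 UMI they were 4 and 6 of 1229 genes, and with no filter on low counts 62 and 53 of 13891. Genes called in the same direction in both comparisons numbered 12 higher and 11 lower, which is 14.5% and 8.46% of the calls of the first comparison and 50% of those of the second. Of the first comparison's calls, 60 of the 83 higher and 94 of the 130 lower genes passed the filter in the second, and the comparisons share the member sums.

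Ctla4 in these cells was at 452, 439, 287 and 390 CPM, below every member library (log2 difference 1.72, SE 0.20, edgeR adjusted p = 9.3e-05). Ikzf2 was at 657, 505, 522 and 371 CPM (1.71, SE 0.22, edgeR adjusted p = 0.0002). Both were thus higher in this effector-like class than in all Foxp3-negative CD4 T cells, and the members still lay above without overlap. The genes with the largest differences were Ift80, of the ciliary transport complex (2.64, SE 0.48, edgeR adjusted p = 0.0047), and Phlpp1, a phosphatase that acts on AKT. Phlpp1 was at 497, 206, 373 and 410 CPM in the members against 41.1, 53.2, 95.5 and 61.9 CPM (2.48, SE 0.35, edgeR adjusted p = 0.00035). Inpp4b, a phosphoinositide phosphatase, was abundant in the members at 3087, 2287, 1421 and 3351 CPM against 643, 745, 732 and 1238 CPM (1.56, SE 0.21, edgeR adjusted p = 0.00032). P4ha1 (a prolyl hydroxylase), Sh3bgrl, Snx13 (a sorting nexin), Lclat1 and Cyb5a (cytochrome b5) followed with 2.13, 1.73, 1.66, 1.60 and 1.51. Stat5b was higher by 1.02 and the transcription factor gene Foxp1 by 0.88 (edgeR adjusted p = 0.013 and 0.022).

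Lower in the members than in this class were Ccl5 (-7.62, SE 0.84, edgeR adjusted p = 0.025), Nkg7 (-5.68, SE 0.46, edgeR adjusted p = 5.8e-07) and Rasgef1b (-4.67), which had 2 member UMIs. The Ccl5 call was lost without P-LC24 (0.33) and without P-HC24 (0.13). Dennd4c (-3.06), Arl4c (-2.17), Tbc1d4 (-2.13), Pde7a (-1.99) and Arhgap26 (-1.88), genes of vesicle traffic, cyclic AMP breakdown and small GTPases, were also lower. Cd40lg, the helper signal to B cells, was at 120, 25.7, 24.3 and 59.8 CPM against 561, 146, 115 and 155 CPM (-1.95, SE 0.38, edgeR adjusted p = 0.006), with some overlap between libraries. Id2, a partner of effector differentiation, fell by 1.93, the phosphatase gene Ptpn22 by 1.40, and the integrin chains Itga4 and Itgb1 by 1.32 and 1.03. The T cell receptor chain gene Cd247 fell by 1.03, and also by 0.92 in the first comparison.

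Values that stopped short of the threshold here included Tnfrsf4 (log2 value 0.98, edgeR adjusted p = 0.15), Tnfrsf18 (0.78, 0.21), Icos (0.69, 0.15), Nrp1 (0.82, 0.29), Izumo1r (1.38, 0.06) and Rora (0.40, 0.65). Treg core genes had 1 call among 10 tested, with a median of 0.74 against 0.00 over all genes. Lrrc32 and Il2ra did not pass the filter. Their shares were 1 of 80 and 5 of 80 Foxp3-negative cells, against 26 of 58 and 23 of 58 members. Satb1 had a log2 value of 2.43 (SE 0.56, edgeR adjusted p = 0.075), the opposite sign to that against all Foxp3-negative CD4 T cells. The comparison cells were chosen for lacking naive genes, which bears on any gene that varies with these.

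Ighm, which encodes the heavy chain of immunoglobulin M and marks B cells, was higher in the members in both comparisons. It was at 189, 308, 354 and 180 CPM against 114, 129, 86.8 and 108 CPM in all Foxp3-negative CD4 T cells (log2 difference 1.13, SE 0.28, edgeR adjusted p = 0.015), and the call was lost without I-LC32 (0.46) and without P-HC24 (0.081). Of 7 B cell genes, 6 had at least 1 UMI in the members, and Cd79a was at 0 by the rule. The summed level of the list was 274, 668, 529 and 376 CPM with Ighm the most abundant. Cd74, also on that list, had a log2 value of -1.20 (edgeR adjusted p = 0.024), which turned to 0.55 without the cells carrying haemoglobin or macrophage RNA. A part of free or co-captured B cell RNA in the Ighm level was not tested.

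Functions outside the Treg programme gave few calls against all Foxp3-negative CD4 T cells. Interferon-stimulated genes, immediate early genes, trafficking receptors, sterol genes and liver X receptor genes had no call by edgeR among 10, 12, 10, 6 and 4 tested. At an unadjusted p under 0.05 these lists gave 1, 2, 2, 0 and 1 genes, and DESeq2 called 1 interferon-stimulated gene and none of the others. Ltb and Cd40lg were the testable cytokine genes, with log2 values of -0.12 and -1.10 and no call by edgeR or DESeq2 (1 at an unadjusted p under 0.05). Ifng and Il4 had no UMI in the 58 members, and Tbx21, the factor of type 1 helper cells, was seen in 2. The chemokine receptor genes Cxcr3, Ccr2 and Ccr4 were found in 10, 14 and 10 members, and Cxcr6, a receptor of liver-resident T cells, in 1 of 58 against 56 of 745 Foxp3-negative cells. Among 16 T cell receptor signalling genes, 2 were lower, Cd247 (-0.92) among them. Of 9 tested lineage factors Rora was the only call, and cell cycle, macrophage and erythroid genes had none by edgeR among 2, 5 and 5 tested, none at an unadjusted p under 0.05 and none by DESeq2. The enkephalin gene Penk had 3 UMIs in 3 members and none in the 745 Foxp3-negative cells.

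Since Foxp3 belongs to the forkhead family, the promoters of the called genes were searched for the forkhead core GTAAACA on either strand (TGTTTAC), within 250 bases before each RefSeq transcription start. In all, 4 sites belong to genes that were higher in the members, and they are shown with 10 bases on each side and the core in capitals, 5' to 3' on the plus strand of GRCm39, where each gene also lies. The sequences are RefSeq promoters whose position was found by matching them to that build.
Gbp3, 233 bases before the start, chr3:142265556-142265582: aagctgcactGTAAACAgtggccatct
Mxi1, 225 bases before the start, chr19:53317885-53317911: gcgcggagaaGTAAACAaaccgcgcgc
Pim1, 64 bases before the start, chr17:29711979-29712005: cccaaagtttGTAAACAggaatcacgt
Swap70, 101 bases before the start, chr7:109820793-109820819: ctttgcgtgtTGTTTACgtccccgtag

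Of the 83 genes higher in the members, 63 had a promoter in the RefSeq set and 4 of these held the core (6.35%). Of the 130 lower genes, 97 had one and 4 held it (4.12%). The share was 2.82% among tested genes (130 of 4606) and 3.54% among all genes (956 of 27025). The core is short, and these matches are a description of the sequence that says nothing of binding. The log2 differences of these genes from all Foxp3-negative CD4 T cells were 2.22 for the guanylate-binding protein gene Gbp3, 1.21 for Mxi1 (a MYC antagonist), 0.92 for the kinase gene Pim1, which STAT5 induces, and 2.06 for Swap70 (edgeR adjusted p = 0.0043, 0.031, 0.019 and 0.032). Apart from Swap70 they were named because of the match, after their values were seen.

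At week 24, with 8 P-HC24 and 9 P-LC24 members, 251 genes had at least 50 UMIs over both libraries and a UMI in at least 10% of the members of either. Among them, P-HC24 exceeded P-LC24 by 1.5-fold or more in 26 (10.4%) and fell short of it as far in 47 (18.7%), as ratios of CPM with no test. The counting interval lay off 1 for 90 of the 251. The excess of lower genes did not hold in 2 alternatives, with 11 higher and 8 lower among 128 genes of at least 100 UMIs, and 22 higher and 23 lower with a mitochondrial limit of 5%. Klf2 had the highest ratio, 2.40 (95% interval 1.58 to 3.71), from 61 UMIs in 8 cells against 38 UMIs in 7, with 41.0% of the P-HC24 UMIs in 1 cell. The same ratio in Foxp3-negative CD4 T cells was 1.11. Adk (adenosine kinase), the AP-1 gene Jund, Stat4 and S100a11 had 2.21, 2.14, 2.07 and 2.07, the last with 82.8% of its P-HC24 UMIs in 1 cell.

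The lowest ratio of week 24 was that of Grap2, an adaptor of T cell receptor signalling, at 0.132 (0.0588 to 0.261) from 9 against 102 UMIs. Atxn1, the glucocorticoid receptor gene Nr3c1, Arih1 and Utrn had 0.287, 0.294, 0.308 and 0.327. Ikzf2 had a ratio of 0.487 (0.328 to 0.707), Icos of 0.348 (0.174 to 0.644) with 12 of its 13 P-HC24 UMIs in 1 cell, and Ctla4 of 0.802 (0.563 to 1.13). The variation between animals was not measured, since each library pooled 3 mice.

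At week 32, after the arms had shared the same diet for 8 weeks, 19 I-HC32 and 22 I-LC32 members were compared over 1044 genes, of which 118 were at least 1.5-fold higher in I-HC32 (11.3%) and 270 lower (25.9%). The median ratio of all genes was 0.881, and relative to it 179 were higher and 204 lower. Among members with at least 2 Foxp3 UMIs, 57 of 639 genes were higher (8.92%) and 261 lower (40.8%). The highest ratios were those of macrophage and monocyte genes. Fn1 (fibronectin) had 267 UMIs against 1, Lyz2 1021 against 6 and Slpi 1281 against 9, and Prg4 and Wfdc17 had 99 and 54 against 0. These came largely from the single I-HC32 member with macrophage RNA. Without the 5 cells with foreign RNA, 121 of 885 genes were higher and 204 lower. Without them the Lyz2 ratio was 8.25 (3.27 to 24.8) and that of Slpi 3.59 (1.47 to 9.30).

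Naming the extreme genes again without those 5 cells, a step taken after their values were seen, put Satb1 first at 8.10 (5.16 to 13.1), from 94 UMIs in 11 cells of I-HC32 and 25 UMIs in 5 cells of I-LC32. With all members its ratio was 3.23 (2.30 to 4.59), and with only members of at least 2 Foxp3 UMIs 4.51 (2.39 to 8.46). In Foxp3-negative CD4 T cells it was 1.25. Epb41 (a membrane skeleton protein), Bcl2 and Lrig1 (a receptor inhibitor) followed at 4.69, 4.04 and 3.98, and had 3.80, 3.67 and 3.27 with all members.

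Of the 12 naive and circulating genes, 7 could be compared at week 32, with 3 at least 1.5-fold higher in I-HC32, 1 lower and a median ratio of 1.23 with all members, against 0.881 over all genes. Satb1 (3.23), Bach2 (2.00, 1.47 to 2.73) and Klf2 (1.95, 1.59 to 2.38) were the higher genes, and S1pr1, the receptor for exit from lymph nodes, was the lower one at 0.587 (0.330 to 1.00). The intervals of Lef1 (1.23, 0.854 to 1.75), Il7r (1.20, 0.914 to 1.56) and Foxp1 (1.19, 0.936 to 1.51) spanned 1. Without the 5 cells the ratios were 2.82 for Bach2, 1.37 for Klf2, 0.807 (0.442 to 1.41) for S1pr1, 2.08 (1.40 to 3.07) for Lef1, 1.95 (1.46 to 2.60) for Il7r and 1.45 (1.12 to 1.86) for Foxp1. Among members with at least 2 Foxp3 UMIs, Lef1 had 0.486 (0.152 to 1.21) and Foxp1 0.753, so the naive genes did not share 1 direction in every version.

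On the low side at week 32 were the calcium-binding S100a6 with 0.0727 (0.0345 to 0.136) and Lgals1 (galectin-1) with 0.196 (0.127 to 0.291), both without the 5 cells, and with 0.0870 and 0.150 over all members. With all members, S100a6 was found in 18 of 22 I-LC32 members and 6 of 19 I-HC32 members. Its ratio in Foxp3-negative CD4 T cells was 1.10 and that of Lgals1 0.892. Anxa6 (annexin A6) had 0.176 (0.0461 to 0.479) and Ifi27l2a, an interferon-stimulated gene, 0.186 (0.138 to 0.247), compared with 0.136 and 0.172 over all members. All 4 tissue Treg genes that could be compared (Il18r1, Gata3, Maf and Rora) were lower in I-HC32 with all members, with ratios of 0.290, 0.624, 0.504 and 0.365 and a median of 0.434. Over all 1044 genes the median ratio was 0.881, and 270 genes (25.9%) were at least 1.5-fold lower. Without the 5 cells Rora stood at 0.472 (0.316 to 0.688) and Il18r1, a chain of the interleukin-18 receptor, at 0.400 (0.203 to 0.729), while the intervals of Gata3 (0.446 to 1.49) and Maf (0.246 to 1.13) spanned 1.

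Between the week 32 libraries, Ctla4 had a ratio of 1.25 (0.996 to 1.56) over all members, Ikzf2 of 0.497 (0.412 to 0.598), Nrp1 of 0.392 (0.213 to 0.680) and Icos of 0.814 (0.600 to 1.10). Without the 5 cells Ctla4 had a ratio of 1.54 (1.22 to 1.93), Ikzf2 of 0.584 (0.480 to 0.706), Nrp1 of 0.404 (0.198 to 0.755) and Icos of 1.10 (0.806 to 1.49). Icos thus changed side with these cells, with an interval that spanned 1 in both versions, while Ikzf2 and Nrp1 were lower in I-HC32 in both. Among members with at least 2 Foxp3 UMIs, Ikzf2 was at 1811 CPM in I-HC32 and 2664 CPM in I-LC32. Nrp1 was then at 241 and 357 CPM (8 and 61 UMIs), and Ctla4 at 1207 and 1054 CPM. The gaps for these 3 genes were narrower than over all members. Proliferation genes were a matter of 2 cells. Ube2c, Stmn1, Top2a and Birc5 had 79, 59, 65 and 50 UMIs in I-LC32 and none in I-HC32 after the 5 cells were set aside, which makes I-HC32 at least 12.2-fold, 9.13-fold, 10.1-fold and 7.74-fold lower with 3 UMIs as the floor. The 2 I-LC32 members with 10 or more UMIs of cell cycle genes held 82 and 127 of them, and no member of another library had more than 1. With 1 library for each condition, the difference between 2 of 22 and 0 of 19 cycling cells was not tested.

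**Figure D5:**
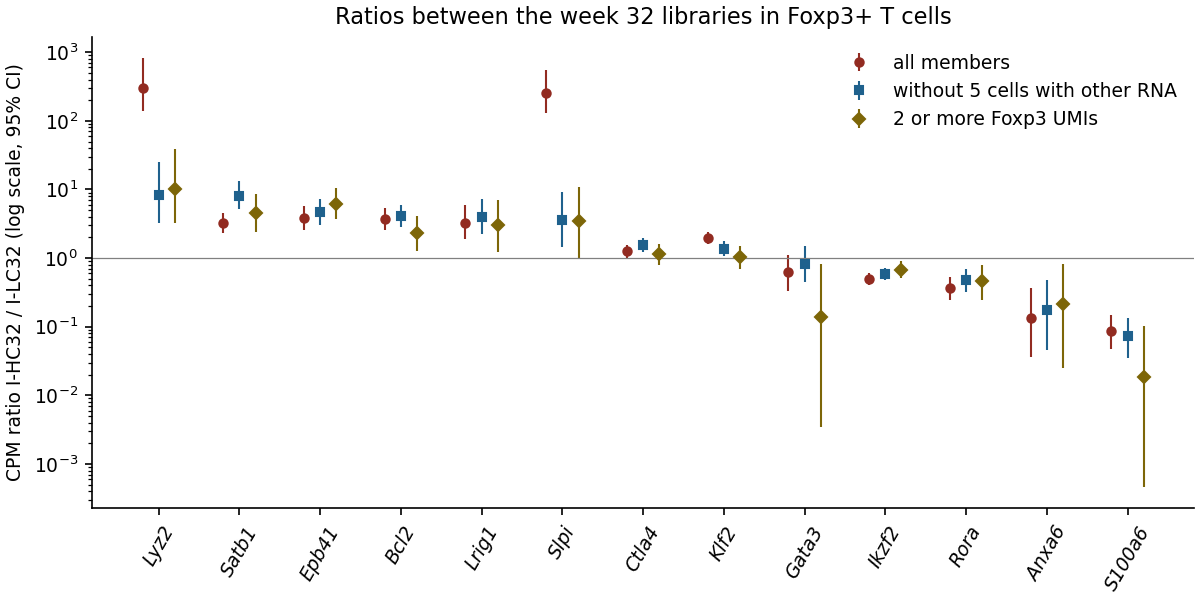
Ratio of CPM in I-HC32 to I-LC32 members (log axis, 95% counting intervals) for 13 genes, over all members (circles), without the 5 cells with foreign RNA (squares) and over members with at least 2 Foxp3 UMIs (diamonds). Lyz2 falls from 300 to 8.25 without those cells, whereas S100a6 and Satb1 keep their side of 1 in each version.

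Joining the libraries of each diet arm gave 27 HC and 31 LC members and 1391 genes, with 118 at least 1.5-fold higher in the HC arm (8.48%) and 300 lower (21.6%; median ratio 0.906). Relative to the median gene the counts were 179 and 226. Without the 5 cells 118 of 1235 genes were higher and 254 lower, and the highest ratios were those of Jun at 5.49 (3.10 to 10.2), Epb41 at 3.94 (2.70 to 5.81), Bcl2 at 3.59 (2.64 to 4.94), Txnip at 3.55 (2.09 to 6.19) and Tmem64 at 2.86 (1.79 to 4.63). Over all members these were 5.33, 3.43, 3.39, 3.05 and 2.13. Jun, a component of the AP-1 factor, was then found in 13 HC and 9 LC cells, and its ratio in all Foxp3-negative CD4 T cells was 1.41. The chemokine receptor gene Ccr2 had 1 UMI in the HC arm and 57 in 13 cells of the LC arm, a ratio of 0.0298 (0.000741 to 0.173), and in Foxp3-negative CD4 T cells the ratio was 2.45. Its member counts by library were 3 of 9, 1 of 8, 10 of 22 and 0 of 19 cells, so 10 of the 14 cells with a UMI came from I-LC32. Joined arms mix 2 sampling weeks, and differences between arms, weeks and pools of mice cannot be told apart from differences between libraries.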

How the data were processed

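Single-cell RNA sequencing gave 4 libraries of liver non-parenchymal cells. The deposited files hold raw UMI counts for 33696 genes, which the authors made with Cell Ranger 9.0.1 on GRCm39 (Seurat 5.3 is also named in the submitters' processing notes). Counts were summed per library and class. Members were compared with Foxp3-negative CD4 T cells by edgeR 4.0.16 (quasi-likelihood test, TMM, minimum count 10, library as a block, genes of the rule left out, Benjamini-Hochberg, called at 0.05). Conditions, with 1 library each, were compared as ratios of CPM with exact Poisson 95% intervals, for genes with a UMI in 10% of the members of either library and 50 UMIs over both, and no test was made. Shares have exact Clopper-Pearson intervals, and a count of 0 allows up to 3 counts. The 212, 382, 440 and 432 cells with the highest Scrublet scores (scanpy 1.11.5) were kept except in an alternative. Their number was set in advance at 0.8% for each 1000 kept cells. No member was among them, so that alternative left the member sums as they were.

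Named genes were the 10 largest and 10 smallest differences among called genes that moved the same way in 4 libraries with at least 50 UMIs (members for higher genes, the other class for lower ones), the 5 highest and 5 lowest ratios per pair of conditions, and members of 23 gene lists (231 of 232 genes in the files). Immunoglobulin, T cell receptor, haemoglobin, mitochondrial, ribosomal and unnamed genes were not named by rank. Members and lists were chosen with earlier results of these data known. On simulated data for 5760 genes of the comparison with all Foxp3-negative CD4 T cells, edgeR recovered 98% of 4-fold increases, 84% of 4-fold decreases, 32% of 2-fold increases and 4% of 2-fold decreases. For 1598 genes of the comparison with the cells without naive-cell markers, it recovered 86.4%, 85%, 18.2% and 25% in the same order. Alternatives changed the scaling, filter, block, cell limits, doublets, depth and the libraries or cells left out. Promoters were RefSeq sequences matched to GRCm39. Results for some genes, including 1 that helped to define the cells without naive-cell markers, are not reported here.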

Additional observations from a re-analysis of the deposited data

Results flagged for a closer look

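The ratio between the diet arms pointed in opposite directions at the 2 weeks for 2 of the genes named between conditions. Nr3c1, the glucocorticoid receptor gene, had a ratio of 0.294 in P-HC24 against P-LC24 members (95% interval 0.139 to 0.568) and of 1.54 in I-HC32 against I-LC32 members (1.13 to 2.09). S100a11, a calcium-binding protein gene, had 2.07 at week 24 (1.14 to 3.82), with 82.8% of its P-HC24 UMIs in 1 cell, and 0.308 at week 32 (0.206 to 0.447). Each condition was 1 library, so neither difference was tested.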

How the results depend on the processing

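Shares moved with the denominator, to 0.175%, 0.116%, 0.297% and 0.258% of all kept cells and to 5.92%, 6.90%, 8.09% and 7.22% of CD4 T cells (4.67%, 0.917%, 5.30% and 2.40% with a Cd4 UMI in every cell), and with at least 2 Foxp3 UMIs I-HC32 fell to 0.710%. Against all Foxp3-negative CD4 T cells, genes higher numbered 30 with Cd4-positive members only and 27 to 92 when 1 library was left out. Genes lower numbered 214 with no filter on low counts, 46 with no library block, 198 with at least 2 Foxp3 UMIs, 35 with Cd4-positive members only and 38 to 137 when 1 library was left out. Against the cells without naive-cell markers such as Ccr7 and Lef1, genes higher numbered 15 by DESeq2, 62 with no filter, 4 with Cd4-positive members only and 7 to 29 when 1 library was left out. Genes lower numbered 53 with no filter, 6 with Cd4-positive members, 13 after thinning and 8 to 31 when 1 library was left out. Cd74 turned from -1.20 to 0.76 after thinning and to 0.55 without cells carrying haemoglobin or macrophage RNA. Without I-LC32, 24 of the 83 higher and 37 of the 130 lower calls remained, and without the cells with foreign RNA 77 and 122.

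For week 24, higher and lower genes numbered 6 and 22 at 2-fold, 11 and 8 of 128 genes with at least 100 UMIs, and 22 and 23 of 202 genes with a mitochondrial limit of 5%. For week 32 they numbered 45 and 112 at 2-fold and 54 and 95 of 440 genes with 100 UMIs, 179 and 204 relative to the median gene, and 57 and 261 of 639 genes with at least 2 Foxp3 UMIs (40.8% lower, against 25.9%). For the joined arms they numbered 42 and 112 at 2-fold and 43 and 121 of 614 genes with 100 UMIs, 179 and 226 relative to the median gene, and 62 and 287 of 988 genes with at least 2 Foxp3 UMIs (29.0% lower, against 21.6%). The causes were not tested. The leaving out of cells with foreign RNA, and the limit of 2 Foxp3 UMIs between conditions, were chosen after seeing the data. Prg4 and Wfdc17, with 0 UMIs in the LC libraries, had no ratio to recompute. The comparisons with Foxp3-negative cells paired the 2 classes within each library, whereas conditions, with 1 library each, could not be paired. With 8 to 22 members a library, genes of low level could not be compared.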

Other observations

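T cell receptor beta V genes were read in 10 of the 58 members, in which 8 different V genes appeared, the most frequent being Trbv16 in 3 cells. Among 745 Foxp3-negative CD4 T cells, 149 had a beta V gene UMI, with 25 V genes seen. These 3' libraries hold too few V gene reads to say whether members shared a receptor.

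The 9 members without Ikzf2 came as 1, 1, 1 and 6 cells from the 4 libraries. Of these, 8 had Ctla4 and 6 had Ccr7, while 1 had Gata3 and none had Il1rl1 or Itgae.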
